A study of Homo sapiens with 2 samples.

Results

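The genes described are those of the human ATP-binding cassette (ABC) family, taken as every probe for a transcript whose gene name on the array began with ABC, a subfamily letter from A to G and a digit. This rule found 47 of the 18833 genes with a symbol on the arrays, read by 66 probes at 75 spots. Expression was measured on 2 single-color Agilent oligonucleotide arrays, 1 for siRNA-untreated Y79 cultures and 1 for Y79 cultures harvested 48 h after siRNA against Ep-CAM. Y79 is an established human retinoblastoma line grown in suspension, and Ep-CAM is an epithelial cell adhesion molecule. The paper describes siRNA treatment of cells that had first been exposed to AZC, a DNA demethylating agent, so that both cultures would share this exposure, while the sample labels name only the siRNA. With 1 array per condition each ratio compares these arrays alone, no replicate could check it, and no statistical test was applied. The RNA came from whole cultures, so a smaller number of expressing cells and less RNA per cell cannot be told apart.

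ABC proteins bind and hydrolyze ATP through paired nucleotide-binding domains, and most of them use this energy to move a substrate across a membrane. Subfamilies B, C and G hold the pumps known for expelling cytotoxic drugs from tumor cells, and these have been studied in retinoblastoma for their link to chemotherapy resistance. Other members move cholesterol, phospholipids, bile salts, peptides or mitochondrial metabolites, and members of subfamilies E and F have no membrane domain and act in translation.

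The signal of a spot was its brightness in arbitrary units after background subtraction within the array. For a scaled level it was divided by the median of the non-control spots of its array, which was 48.9 for siRNA-untreated and 50.0 for siRNA-treated cells. Each array held 43376 non-control spots, of which 70.4% and 68.0% were well above background. The dimmest spot so marked had a signal of 14.9 for siRNA-untreated and 17.5 for siRNA-treated cells. A log2 ratio divides the scaled siRNA-treated by the scaled siRNA-untreated level. For a probe dim on 1 array a minimum fold is stated, using the higher of its dim signal and the lowest signal well above background, and a probe dim on both has no ratio. A gene with several probes was read from the probe with the highest mean signal. Levels of different probes depend on the probes as well as on the transcripts and were not set against each other.

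The label of the treated array could not be checked by its target. The single probe for Ep-CAM, under its older symbol TACSTD1 at row 49 and column 7, gave signals of 15.6 (siRNA-untreated) and 12.0 (siRNA-treated), dim on both arrays. GAPDH, a glycolytic enzyme used as a reference, had signals of 250 and 251 with a log2 ratio of -0.03. ACTB, encoding cytoskeletal actin, had signals of 68726 and 56442 with a log2 ratio of -0.32, and its 4 probes lay between -0.32 and 0.02. Markers did not single out a retinal character on these arrays. Those of other cell types were measured on both arrays more often. The counts were 3 of 3 for hepatocyte, epithelium and blood, and 3 of 4 for pigment epithelium and fibroblast. For Muller glia and for endothelium they were 2 of 3. Of 12 retinoblastoma and photoreceptor markers, 11 had a probe and 4 were measured on both arrays, namely CRX (-0.37), OTX2 (-0.47), ARR3 (-0.21) and MYCN (0.30, and -0.47 at its other probe). Their median log2 ratio was -0.29. NRL, RCVRN, PDE6H, NEUROD1, RXRG and SYP were dim on both arrays, and THRB passed only in siRNA-untreated cells. GNAT2 had no probe under this symbol.

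Of the 47 ABC genes, 33 (70.2%) had a probe well above background in siRNA-untreated cells and 30 (63.8%) in siRNA-treated cells. Over all genes with a symbol the shares were 82.1% and 80.1%. The 30 genes were detected on both arrays, 3 genes in siRNA-untreated cells only, and 14 on neither. By role, 9 of 11 drug-efflux pumps, 11 of 18 lipid and sterol transporters and 4 of 4 mitochondrial transporters were detected in siRNA-untreated cells. The same held for 3 of 5 peroxisomal and lysosomal transporters, 1 of 2 channel regulators and 4 of 4 translation factors. The probes themselves differed in base composition. ABC probes well above background on both arrays had a median GC content of 45.0% (n = 36) and those dim on both 36.7% (n = 25), the same medians as over all 27043 and 11580 such probes of the arrays. The part of base composition in which genes were detected was not tested.

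No ABC gene measured on both arrays reached a 2-fold change, and no minimum fold of the 3 genes dim on 1 array reached 2. Counts were 0 higher, where 1.28% of the 15688 genes with a value were at least 2-fold higher, and 0 lower, where 0.988% were at least 2-fold lower. With the thresholds in the processing text of the series, a ratio of 1.5 or more and of 0.55 or less, 1 ABC gene was higher (ABCB6), where 3.53% of all genes were, and 1 lower at the probe used (ABCE1), where 1.77% were. Neither passed with the value table of the series (0.48 and -0.59) or with normexp (0.01 and -0.66), and ABCE1 did not pass with the mean over its probes (-0.13). The 30 ABC genes measured on both arrays had a median log2 ratio of -0.01 and a range from -0.97 to 0.61. All 14827 measured genes had a median of -0.03, and 90% of them lay between -0.59 and 0.42. The sign of the ABC median depended on the scaling, and was positive with no scaling (0.02), quantile normalization (0.02), the 75th percentile (0.0011) and a median over probes that passed on both arrays (0.0023).

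**Figure D1:**
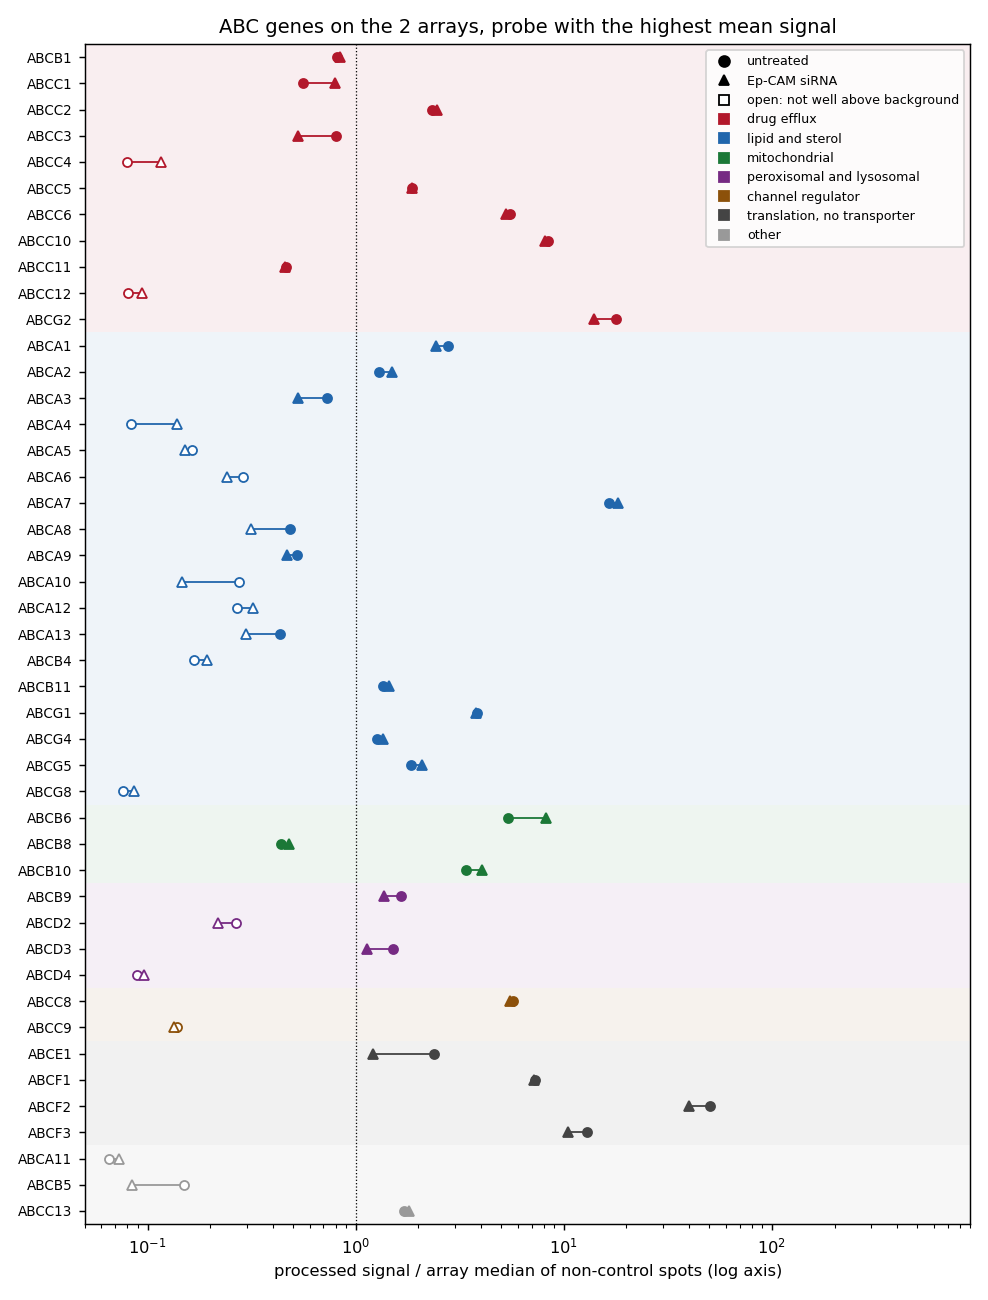
Processed signal of ABC genes divided by its array's median of non-control spots, on a log axis, for siRNA-untreated (circles) and siRNA-treated cells (triangles), with genes grouped by role and open symbols for signals not well above background. The 14 genes dim on both arrays have open symbols only, and the distance between the symbols of a gene shows its change.

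Technical error was taken from 171 probes printed repeatedly on each array, with at least 8 spots measured on both. The SD of the log2 ratio over the spots of a probe had a median of 0.14. It was 0.22 for the dimmest tercile of these probes (mean signal 26.4 to 76.0), 0.13 for the middle and 0.092 for the brightest (from 250). This SD leaves out the variation between cultures. ABCA9, ABCB8 and ABCC11 were dimmer than these probes and were set against the dimmest tercile. Of the 29 ABC genes read from 1 spot and measured on both arrays, 14 (48.3%) lay within 1 such SD of 0, against 49.3% of 14674 genes. More than 2 technical SDs higher were 3 genes, ABCB6 and ABCC1 among them, where 8.24% of all genes were, and 6 were lower at the probe used (ABCE1, ABCG2, ABCF2, ABCF3, ABCC3 and ABCA3), where 17.1% of all genes were. The other ABCE1 probe was above 0.

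Among the drug-efflux pumps, ABCB1 is the one read most often. ABCB1 encodes P-glycoprotein, the multidrug pump that expels anthracyclines, vinca alkaloids and epipodophyllotoxins, and its probe was printed 10 times. The probe crosses an intron on chromosome 7, at chr7:86779964-86783254 on the minus strand (hg17, as are all positions given), and its first 30 of 60 bases are shown because all 10 spots carry this sequence.
ABCB1: gtcactgcctaataaatatagcactaaagt
Signals ranged from 30.8 through a median of 40.9 to 45.9 in siRNA-untreated cells and from 34.0 through 39.1 to 64.3 in siRNA-treated cells. The scaled level was 0.814 and 0.839. The signals of the arrays overlapped, and every spot was well above background on both. The mean log2 ratio was 0.04 ± 0.25 (SD, n = 10 spots), with 5 spots above 0 and 5 below. The spot at row 100 and column 51, with 40.1 and 64.3, had a ratio of 0.65, and without it the mean was -0.02 ± 0.14 (SD, n = 9). Its neighbor at row 100 and column 50 was the ABCC10 spot, with a ratio of -0.05. That ABCB1 spot was left out because of its value. The lowest ABCB1 spot, at -0.29 (row 419, column 67), lies in the corner of wider ratios described below. Leaving out the corner gave a mean of 0.09, so the sign of the mean depended on the spots kept.

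**Figure D2:**
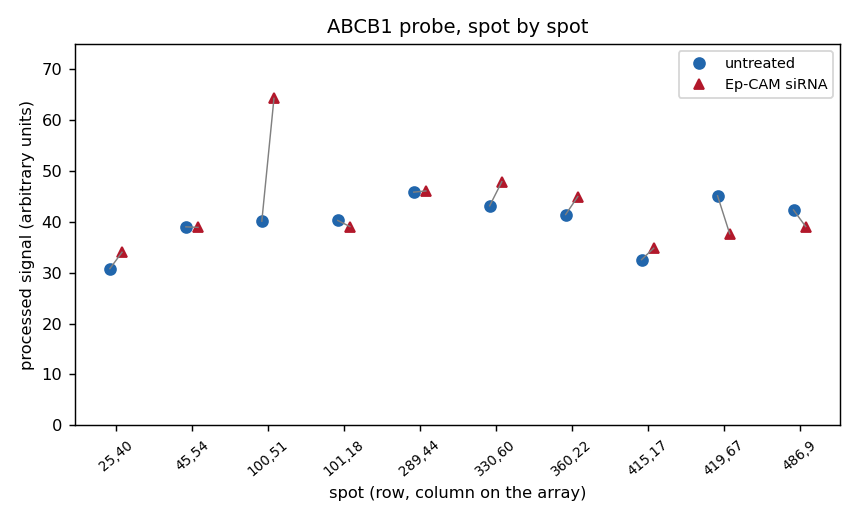
Processed signal, in arbitrary units, of the ABCB1 probe at each of its 10 spots (row and column on the x axis) in siRNA-untreated (circles) and siRNA-treated cells (triangles). Signals lie between 30.8 and 64.3, and the spot at row 100 and column 51 stands apart in siRNA-treated cells.

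ABCG2, the breast cancer resistance protein that exports mitoxantrone and topotecan and marks side-population cells, had signals of 875 and 700, or 17.9 and 14.0 after scaling. Its log2 ratio was -0.36, at row 318 and column 85 (chr4:89370605-89370664, minus strand). The spot lies at the last column of the array. The 41 measured spots within 5 rows and 5 columns of it had a median log2 ratio of -0.27, with quartiles of -0.43 and -0.11, so that the ABCG2 ratio lay inside the spread of its surroundings. With the local median subtracted it was -0.09, as calculated after the values had been seen, and with normexp -0.88. The first 30 bases of this probe are given since it was the only one for the gene.
ABCG2: ctggggcttgtggaagaatcacgtggcctt

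ABCC1, the multidrug resistance protein that exports glutathione conjugates such as leukotriene C4, had signals of 27.3 and 39.6, or scaled levels of 0.559 and 0.792. Its log2 ratio was 0.50 at row 83 and column 32, in the dimmest range of signals, and it was 0.09 with the value table of the series and 0.17 with normexp. ABCC3, an organic anion exporter of basolateral membranes, had signals of 39.2 and 26.5, or scaled levels of 0.802 and 0.531. Its ratio was -0.60 at row 250 and column 26, -0.25 with the value table and -0.03 with normexp. The value table holds brightness without background subtraction, in which both pumps kept their direction with a smaller ratio, as they did with normexp. Normexp was run with an added offset of 50, which is more than the signals of both pumps.

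ABCC2, the canalicular exporter of conjugated bilirubin, had 2 probes. Signals of 114 and 123 at row 231 and column 70 gave a ratio of 0.08, and signals of 28.8 and 35.3 at row 385 and column 30 gave 0.26. Both probes were above 0 by less than 2 technical SDs, and with normexp the former was at -0.31. ABCC6, whose loss causes pseudoxanthoma elasticum, was read at 271 and 265 (row 242, column 39) and at 198 and 210 (row 498, column 6), with ratios of -0.06 and 0.05. The former probe is assigned to a separate cDNA of ABCC6. The gene has pseudogene copies on the same chromosome, and the share of the signal that came from them was not tested. ABCC10, a pump that confers taxane resistance, had signals of 412 and 408 and a ratio of -0.05 at row 100 and column 50.

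ABCC5, an exporter of cyclic nucleotides and nucleoside analogs, had signals of 91.0 and 93.4 at row 526 and column 14, a ratio of 0.00. Its other probe, at row 404 and column 8, was dim on both arrays with 3.45 and 4.11. ABCC11, known for its role in apocrine secretion, had signals of 22.7 and 22.9 and a ratio of -0.02 at row 403 and column 54. Of the 11 genes grouped here as drug pumps, ABCC4 and ABCC12 had no detected probe. ABCB5, also dim on both arrays, was not in this group. The 3 probes of ABCC4, an exporter of cyclic nucleotides and purine analogs, had signals between 3.18 and 3.87 in siRNA-untreated and between 3.94 and 5.83 in siRNA-treated cells, at rows 57, 259 and 200 and columns 44, 83 and 67. The probe of ABCC12, at row 34 and column 39, had 3.93 and 4.68. Over the 9 drug pumps measured on both arrays the median log2 ratio was -0.02, with 4 above 0 and 5 below.

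The lipid and sterol transporters gave 9 genes measured on both arrays, with a median log2 ratio of 0.10 and a range from -0.46 to 0.20. The positive side was not kept with normexp, where ABCA7 (-0.47), ABCB11 (-0.06), ABCG4 (-0.10) and ABCG5 (-0.14) lay below 0, in a setting that moved the median of all genes to -0.26. ABCA7, a phospholipid transporter linked to Alzheimer disease, had signals of 802 and 908, or scaled levels of 16.4 and 18.2. Its ratio was 0.14 at row 230 and column 18. ABCA1, which loads cholesterol and phospholipid onto apolipoprotein A-I, had signals of 136 and 121 and a ratio of -0.21 at row 356 and column 71. A further ABCA1 probe at row 233 and column 2 was well above background only in siRNA-untreated cells (22.8 and 20.4, at least 1.14-fold lower in siRNA-treated cells), and the last, at row 94 and column 38, was dim on both. Both ABCA1 probes with a value lay below 0.

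ABCG1, which exports cholesterol to high-density lipoprotein, had signals of 186 and 190 and a ratio of -0.01 at row 147 and column 4. ABCG4, its homolog of neural tissue, had 61.8 and 67.6 and a ratio of 0.10 at row 301 and column 55. ABCG5 and ABCG8 are subunits of an obligate sterol transporter and are encoded side by side. ABCG5 had signals of 89.9 and 104 and a ratio of 0.18 at row 289 and column 10, while the ABCG8 probe at row 86 and column 58 was dim on both arrays with 3.72 and 4.30. The pair was thus detected for a single subunit.

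ABCA2, a transporter of brain and oligodendrocyte lipid, had signals of 63.3 and 74.5 and a ratio of 0.20 at row 45 and column 59. ABCA3, which fills the lamellar bodies of lung with surfactant lipid, had 35.6 and 26.5 and a ratio of -0.46 at row 400 and column 6. The ratio was smaller with the value table of the series (-0.14) and changed sign with normexp (0.04). ABCB11, the bile salt export pump, had 65.9 and 72.6 and a ratio of 0.11 at row 40 and column 41. ABCB11 is known mainly from liver. The hepatocyte markers ALB, APOA1 and SERPINA1 were all measured on both arrays, with a median log2 ratio of 0.05. ALB was faint, with 21.1 and 22.4, and all 3 epithelium and all 3 blood markers were measured as well. A liver-like character cannot be read from these markers, and the source of the ABCB11 signal was not tested.

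ABCA5, ABCA6, ABCA8, ABCA9 and ABCA10 lie in a cluster on chromosome 17. ABCA9 was measured on both arrays with 25.4 and 23.5 and a ratio of -0.15 at row 138 and column 60. ABCA8 was well above background only in siRNA-untreated cells, with 23.7 and 15.8 at row 313 and column 80, at least 1.39-fold lower in siRNA-treated cells. ABCA5, ABCA6 and ABCA10 were dim on both. The single ratio in the cluster, that of ABCA9, lay within the technical SD of 0.22 of the dimmest tercile and was 0.18 with normexp. Its signals lay below the range of 26.4 to 76.0 from which this SD was taken. ABCA13, the largest protein of its subfamily, was likewise measured only in siRNA-untreated cells, with 21.1 and 14.9 at row 266 and column 62, at least 1.23-fold lower in siRNA-treated cells. ABCA4, which clears retinal conjugates from the discs of photoreceptors, was dim on both arrays with 4.06 and 6.94 at row 229 and column 82. ABCA12, which supplies lipid to the skin barrier, and ABCB4, the phosphatidylcholine floppase of bile, were also dim on both.

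**Figure D3:**
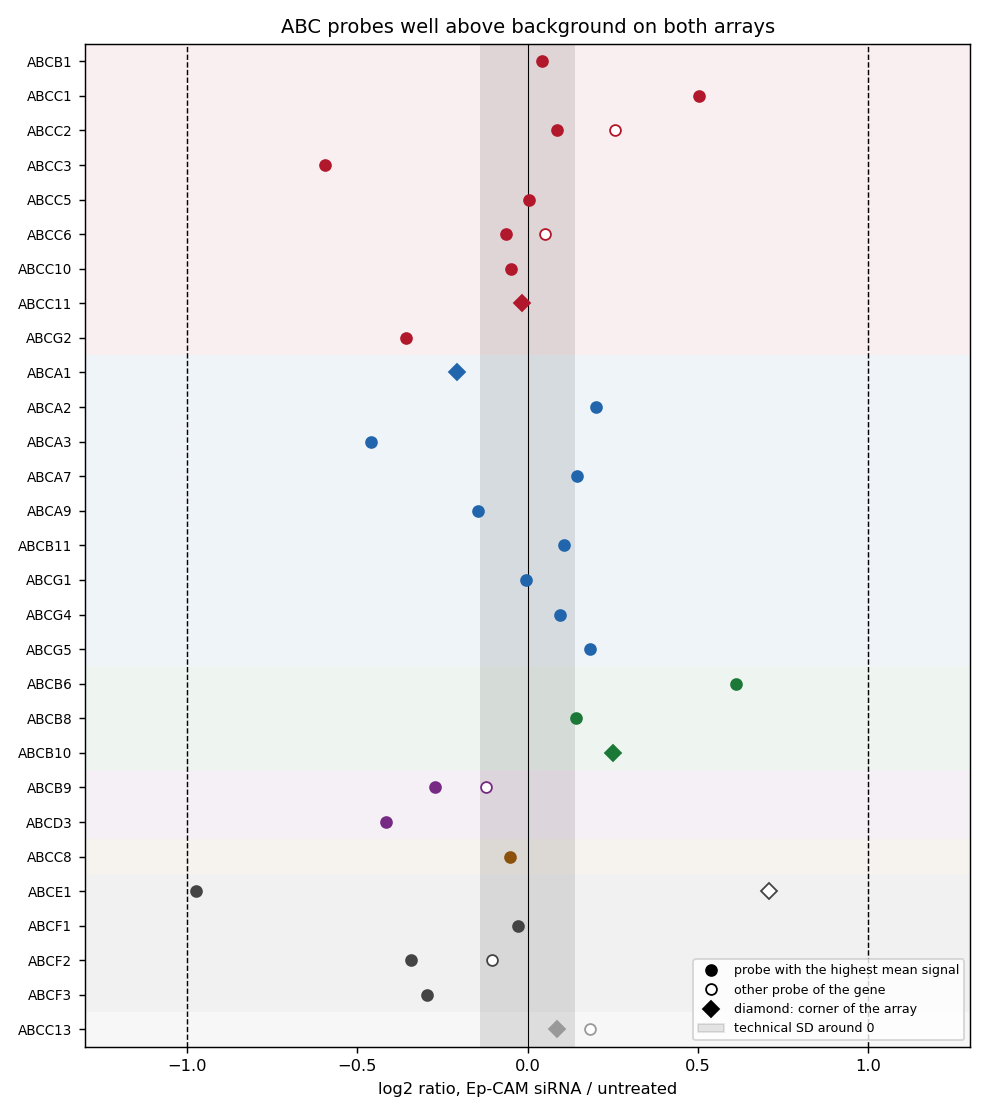
Log2 ratio (siRNA-treated to siRNA-untreated) for ABC probes well above background on both arrays, grouped by role, with the technical SD of 0.14 shaded, dashed lines at 2-fold and diamonds for probes in the corner of the array. No point lies past a dashed line, and the probes of ABCE1 lie at -0.97 and 0.71.

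The 4 mitochondrial transporters were all detected in siRNA-untreated cells. The 3 measured on both arrays had ratios above 0, where 44.4% of all measured genes did. This direction was not kept in every setting, since ABCB10 was at -0.22 with normexp background correction and ABCB8 at -0.0015 with the value table of the series. ABCB6, a porphyrin transporter of the outer mitochondrial membrane and other membranes, had signals of 262 and 410, or scaled levels of 5.37 and 8.19. Its log2 ratio of 0.61 at row 173 and column 20 was more than 2 technical SDs from 0, in surroundings with a local median of -0.07. With normexp it was 0.01. The other ABCB6 probe, at row 411 and column 44, was dim on both arrays with 3.27 and 3.73. The bright probe spans 142 bases of the genome, at chr2:219900508-219900649, and so crosses an intron, while the dim one lies at chr2:219900003-219900062, both on the minus strand. The first 30 bases of each are shown because only the former was well above background.
ABCB6, measured on both arrays: caaagtctgtgccaaccgcaccaccatcgt
ABCB6, dim on both arrays: ctatggtaagggaaagggacctttccgaaa

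ABCB10, an inner membrane protein needed for heme synthesis in erythroid cells, had 4 probes. The probe at row 371 and column 46 had signals of 166 and 203 and a ratio of 0.25. The probe at row 91 and column 34, which ends inside the start of the former, was dim on both arrays with 8.28 and 10.7. The positions are chr1:225960772-225960831 for the measured probe and chr1:225960829-225960888 for the dim one, both on the minus strand, and they share 3 bases. The last 30 bases of the dim probe and the first 30 of the measured probe follow, with the shared bases in capitals.
ABCB10, dim on both arrays: gaagctctagatccactgacggatggaAGA
ABCB10, measured on both arrays: AGAacggtgttagttattgcccatcgtctg
Adjoining stretches of the same transcript thus gave a signal well above background at 1 probe and not at the other. Of the remaining probes, that at row 226 and column 73 passed in siRNA-untreated cells only (16.7 on both arrays, with no fold), and that at row 415 and column 5 was dim on both.

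ABCB8, of the inner membrane, had 21.3 and 24.0 and a ratio of 0.14 at row 61 and column 42.

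Among the peroxisomal and lysosomal transporters, ABCD3, an abundant membrane protein of peroxisomes, had 74.1 and 56.9 and a ratio of -0.42 at row 159 and column 66, and its other probe, at row 70 and column 3, was dim on both. ABCD2, a fatty acid transporter, was dim on both with 13.1 and 10.9 at row 105 and column 9. ABCD4, which acts in lysosomal release of cobalamin, was dim on both at row 523 and column 47. ABCB9, a lysosomal peptide transporter, had 80.8 and 68.5 (row 222, column 56) and 51.2 and 48.2 (row 182, column 62), with ratios of -0.27 and -0.12.

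The channel regulators are sulfonylurea receptors that gate potassium channels. ABCC8, the receptor of beta cells and neurons, had signals of 278 and 275 and a ratio of -0.05 at row 42 and column 30. ABCC9, the receptor of muscle, was dim on both arrays at both of its probes. The channel pores were measured on both arrays, KCNJ11 with 87.9 and 96.6 and KCNJ8 with 45.1 and 49.6, each with a ratio of 0.10.

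The members that act in translation held the most negative ratio of the family at the probes used. ABCE1, which splits ribosomes after termination, had signals of 116 and 60.6, or scaled levels of 2.38 and 1.21, at row 297 and column 9, with a log2 ratio of -0.97. Its other probe, at row 390 and column 73, had 47.8 and 79.9 and a ratio of 0.71. These probes disagreed in direction, and their mean ratio was -0.13. They lie in 1 gene on the plus strand of chromosome 4, at chr4:146407247-146407306 and chr4:146406522-146406581, and their first 30 bases are shown because no direction of ABCE1 can be given from them.
ABCE1, ratio below 0: aggcaacattaatgcaaaagtccccagatg
ABCE1, ratio above 0: ttcctgaagaggcccttttgtgcataatat
Around the former the 82 measured spots had a median log2 ratio of -0.02, with quartiles of -0.17 and 0.15. Around the latter the 88 measured spots had a median of 0.20, with quartiles of -0.17 and 0.62. The part of position on the array in this disagreement was not tested.

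ABCF2 had signals of 2465 and 1989 at row 86 and column 50 and 109 and 104 at row 345 and column 26, with ratios of -0.34 and -0.11. The ratio of the brighter probe was -0.11 with quantile normalization and -0.92 with normexp. The transcript of the brighter probe now has the symbol ABCF2-H2BK1, and that of the dimmer probe ABCF2. ABCF3 had 631 and 526 and a ratio of -0.30 at row 477 and column 31, among spots with a local median of 0.12. ABCF1, which binds initiation factor eIF2 and ribosomes, had 357 and 358 and a ratio of -0.03 at row 313 and column 74. All 4 translation factors were below 0 at the probe used, with a median of -0.32. Over all 14827 measured genes this was also the more common side, with 44.4% above 0. ABCE1 was above 0 at its other probe, and ABCF1 was above 0 in 3 of the 11 alternative settings.

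Members outside these roles were ABCB5, known from melanoma, which was dim on both arrays, and genes described as pseudogenes. ABCA11 was dim on both. ABCC13 had 3 probes, with signals of 83.1 and 90.4 (row 368, column 56, ratio 0.09), of 72.6 and 84.4 (row 267, column 57, ratio 0.18), and dim on both at row 314 and column 8. With normexp the first of these was at -0.16.

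Part of the array carried wider ratios than the rest. Among spots in rows 355 to 532 that also lay in columns 43 to 85, a corner of the array, the SD of the log2 ratio over 2408 measured genes was 0.52, and over the 12419 measured genes elsewhere 0.29. The corner held 9 single-spot ABC probes, and 6 ABC genes were read from it, among them ABCA1, ABCB10, ABCC11, ABCC13 and ABCD4. The 5 of these measured on both arrays had a median of 0.09, and the 25 ABC genes read elsewhere had a median of -0.03. The part of the corner in the ratios of ABCB10 and the higher ABCE1 probe was not tested.

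**Figure D4:**
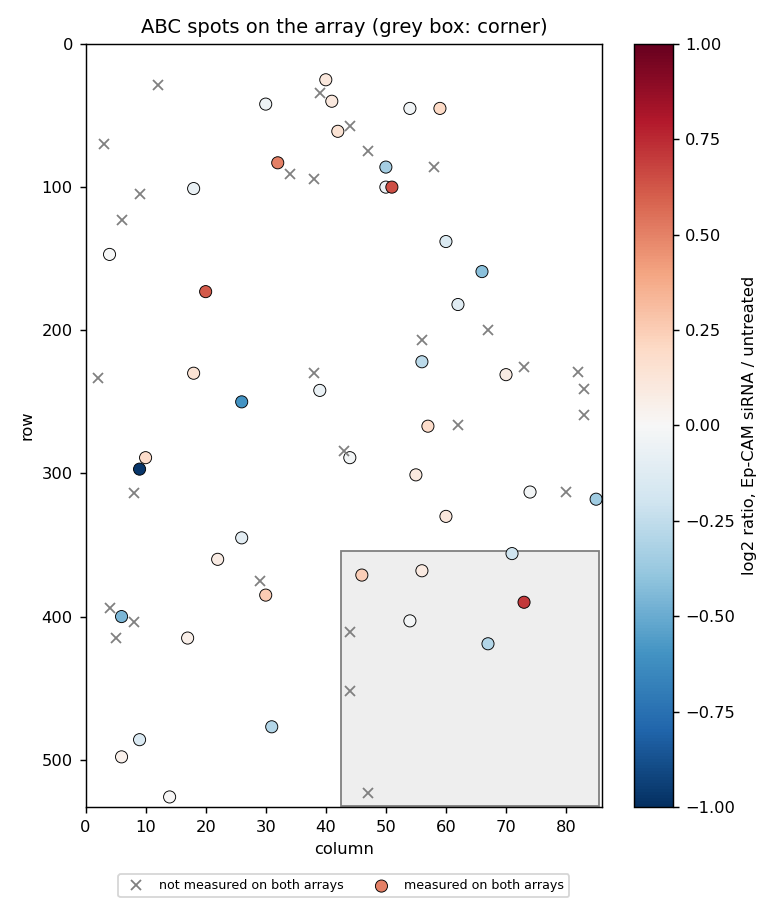
Position of ABC spots by row and column of the array, colored by log2 ratio (red higher, blue lower in siRNA-treated cells), with crosses for probes not measured on both arrays and a grey box around the corner of wider ratios (from row 355 and column 43). Ratios near the ends of the scale occur inside the box (ABCE1, 0.71) and outside it (ABCE1, -0.97).

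Within the family, 14 genes had more than 1 probe. For 6 of these at least 2 probes were measured on both arrays, and their ratios differed by 0.10 to 0.24 in ABCC13, ABCC6, ABCB9, ABCC2 and ABCF2 and by 1.68 in ABCE1. For 6 genes a probe measured on both arrays stood beside a probe dim on both (ABCA1, ABCB6, ABCB10, ABCC5, ABCC13 and ABCD3). Of the 66 probes, 13 spanned more of the genome than their length and so crossed an intron. In several members the level read thus depended on which probe was chosen, and the reason was not tested.

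ABC proteins listed under other symbols were measured on both arrays. TAP1 and TAP2, which carry peptides for antigen presentation, had signals of 277 and 255 and of 355 and 320, with ratios of -0.15 and -0.18. CFTR, a chloride channel of the same family, had 55.2 and 52.3 and a ratio of -0.11, with 0.02 at its other probe. All 3 thus changed by less than 2-fold.

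Genes that work with the transporters were read from lists by function. Of 14 genes of drug and oxidant response, all had a probe, 10 were measured on both arrays with a median of 0.01, and 1 was at least 2-fold higher, where 1.28% of all genes were. This was NR1I2, the pregnane X receptor that induces ABCB1, which was dim in siRNA-untreated (5.59) and well above background in siRNA-treated cells (125), at least 8.15-fold higher. Its single spot, at row 485 and column 83, lies in the corner of wider ratios, whose part in this value was not tested. The mean ratio of ABCB1 was smaller than the SD of its spots. NR1I3, AHR, ARNT and NFE2L2, other regulators of the response, had ratios of -0.06, 0.05, 0.11 and 0.30.

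Of 12 genes of sterol efflux, 11 were measured on both arrays with a median of 0.00, and none reached 2-fold. The liver X receptors NR1H2 and NR1H3, which induce ABCA1 and ABCG1, had ratios of 0.13 and 0.15, with -0.36 at the other NR1H2 probe, and their partners RXRA and RXRB 0.07 and 0.11. APOE, the lipoprotein that accepts cholesterol from the pumps, had mean signals of 7040 and 3771 over 10 spots and a ratio of -0.93, the sole gene of the list at or below 0.55, and was chosen after its values were seen. The pumps ABCA1 and ABCG1 had ratios of -0.21 and -0.01, and their difference from APOE was not tested.

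Of 14 genes of mitochondrial iron-sulfur and heme metabolism, 12 were measured on both arrays with a median of -0.08, and none of these reached 2-fold. GLRX5, which acts in iron-sulfur assembly, had a ratio of -0.15, NFS1 had 0.42, and ISCU was well above background only in siRNA-untreated cells (at least 1.58-fold lower). Chosen after their values were seen, ALAD, an early enzyme of heme synthesis, had signals of 1306 and 689 and a ratio of -0.96 in the corner of the array, and ALAS1, dim in siRNA-treated cells, had 31.4 and 3.84, at least 1.84-fold lower. Of 8 genes of ribosome recycling and initiation, 7 were measured on both arrays with a median of -0.34. EIF2S1, the alpha subunit of eIF2, was the 1 gene of these lists at least 2-fold lower, where 0.988% of all genes were, with signals of 975 and 490 and a ratio of -1.02, and its other probe was at 0.07. PELO, HBS1L, ETF1 and GSPT1 had ratios of -0.56, 0.02, -0.28 and -0.49.

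Of 16 genes of the peroxisome 15 had a probe, 9 were measured on both arrays with a median of -0.07, and none of these reached 2-fold. PEX19 and PEX5, which bring proteins to the organelle, had ratios of 0.05 and -0.06, with 0.12 at the other PEX5 probe, and PEX3 was dim on both. Of 6 genes of cobalamin metabolism 5 were measured on both arrays with a median of 0.03. LMBRD1, the partner of ABCD4, had a ratio of 0.08, CD320 had 0.03 and MTR -0.08, while MMACHC was dim on both.

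**Figure D5:**
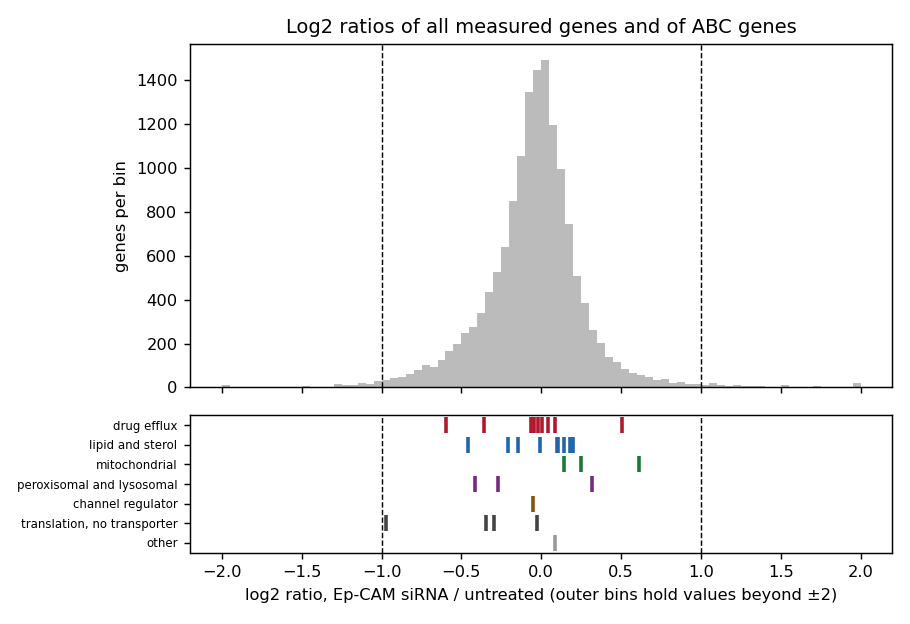
Number of genes per bin of log2 ratio for the 14827 genes measured on both arrays (upper panel), and a tick for each of the 30 ABC genes measured on both, by role (lower panel), with dashed lines at 2-fold. All 30 ticks lie between -0.97 and 0.61.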

How the data were processed

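The deposited files hold spot intensity values that the authors made with Agilent Feature Extraction (version 9.5.3.1 per the file headers, another version per the labels). Other flags per the file headers mark background, saturation and outliers. The value table of the series, also intensity, equals raw median brightness and was an alternative.

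Control and outlier spots were left out, signals were divided by the array's 50th percentile, floored at 0.01 and taken to log2, then averaged over the spots of each probe. A probe counted as well above background if 50% or more of its spots passed. Calls were tested on simulated data. Python 3.11.15, numpy 2.4.6, pandas 2.3.3 and limma 3.58.1 (R 4.3.3) were used. Accessions of 43 of 47 genes matched RefSeq, 41 under the same symbol.

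Named were genes well above background on either array, all drug-efflux pumps, ABC proteins under other symbols, Ep-CAM, GAPDH and ACTB, and from each partner list those past 2-fold and at most 4 others in list order. Some of these genes are in the counts but not reported here. Members and lists were chosen with earlier results of these data known. Precision is limited by the number of arrays.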

Additional observations from a re-analysis of the deposited data

How the results depend on the processing

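No ABC gene was counted as 2-fold changed in any of the 11 alternatives, and with thresholds of 1.5 and 0.55 the counts were 1 higher and 1 lower, with 554 and 277 over all genes. Detected ABC genes numbered 27 with all probes required, 43 with a less strict flag and 31 without the corner, against 33. The median log2 ratio of ABC genes moved to -0.19 with normexp, where that of all genes was -0.26. All genes at least 2-fold higher and lower, 201 and 155 in the report, became 26 and 748 with normexp and 81 and 53 with normexp fitted without the spots dimmer than their background, an alternative added after the data were seen. They became 55 and 57 with the value table of the series, 102 and 99 with the mean over all probes and 59 and 95 without the corner. With only probes well above background on both arrays 133 were higher. The share of higher calls, 56.5%, was 3.36% with normexp and 38.3% without the corner. The causes were not tested.

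Of 326 recomputed ratios of single ABC genes, 42 moved by the technical SD or more, 26 of them with normexp, and 0 passed 2-fold. The sign changed under at least 1 alternative in 16 of 30 genes. No paired analysis was possible because each condition had 1 array. Signal over background limits the 14 dim genes, for which no change can be shown.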

Other observations

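Markers of other cell types were read beside the ABC genes. Of 3 blood markers, HBB rose from a mean signal of 331 to 1235 over 8 spots (log2 ratio 1.87), while PTPRC and CD3E had 0.02 and -0.16. Pigment epithelium, Muller glia, fibroblast, endothelium, hepatocyte and epithelium lists had median log2 ratios of 0.08, 0.06, 0.01, -0.05, 0.05 and -0.02, with no gene past 2-fold.

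The values compare 1 array per condition, the arrays did not measure the siRNA effect on Ep-CAM well above background, and the spread between cultures is unknown. The signal of a probe reports transcript and not protein or transport.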
